A study of Mus musculus with 12 samples.

Results

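J774A.1 is a macrophage line grown from a tumour of a female BALB/c mouse, and it is described across all 12 messenger RNA libraries of the series (12 of 12), taken as a single set with no contrast between treatments. The libraries fell into 4 groups of 3: cell media alone, the buffered salt solution HBSS without hypochlorous acid (HOCl, 0 µM), and HBSS that carried HOCl at 20 µM or at 100 µM. Exposure took 1 h, and the cells were then returned to full medium for 24 h before collection. All libraries came from this single line, grown in DMEM with fetal bovine serum, and nothing in the labels says that replicates were separate cultures. The measure was FPKM, a fragment count scaled to transcript length and library depth, given for 28977 genes.

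Macrophages are phagocytes: they engulf particles, digest them in acidic lysosomes, sense microbial molecules and release chemokines and cytokines. Their identity rests on the transcription factor PU.1 (gene Spi1) and on signals through the receptor of colony-stimulating factor 1 (gene Csf1r), and macrophages of each organ add a programme of their own. Cultured macrophage lines keep dividing, which most macrophages in tissue do little of. Genes were put in classes by their median over the 12 libraries: high (at least 100 FPKM), moderate (10 to 100), low (1 to 10), borderline (a median under 1 with at least 1 FPKM in some library) and absent (under 1 FPKM in all 12). The last name describes the values listed, since reads with several matches may be left out of a count, and their treatment here is unknown. Values in parentheses after a median are the lowest and the highest library.

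The FPKM values of a library rested on between 17683924 and 21408531 reads, as recovered from the steps between low values, so 1 FPKM stood for 17.7 to 21.4 reads per kilobase of exon. At that depth a count of 0 over 2 kb of exon allows up to 3 reads, or 0.0701 to 0.0848 FPKM, counting error only. The pair of cell media replicates 1 and 2 differed from the remaining 10 libraries, with a Pearson correlation across genes (log2 values) of 0.988 between them and of 0.946 to 0.971 to the rest. Cytosolic ribosomal protein genes, their pseudogenes not counted, took 12.9% and 12.8% of the summed FPKM in these libraries, against 7.58% to 8.50% in the other 10. Where the class counts of a list described here differ over the 10 libraries, those are given too.

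The high class held 465 genes (1.60%), the moderate class 4512 (15.6%), the low class 6429 (22.2%), the borderline class 1323 (4.57%) and the absent class 16248 (56.1%). Over the 10 libraries the classes held 459, 4531, 6494, 1114 and 16379 genes. Protein-coding genes made up 403 of the high genes, 4186 of the moderate, 5089 of the low, 355 of the borderline and 6503 of the absent ones. The high genes, few as they were, took a median of 49.9% of a library's summed FPKM (48.9% to 58.7%), and the moderate genes took 40.4% (34.3% to 41.0%). The absent genes together took 0.473% (0.275% to 0.544%). Coding genes of the high class had a median exon length of 2354 bases, against 4001 in the moderate, 5204 in the low and 3434 in the absent class. Of the absent genes, 3315 were above 0 in a single library only. Every gene listed was above 0 in at least 1 library, so genes without a row are counted in no class.

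**Figure D1:**
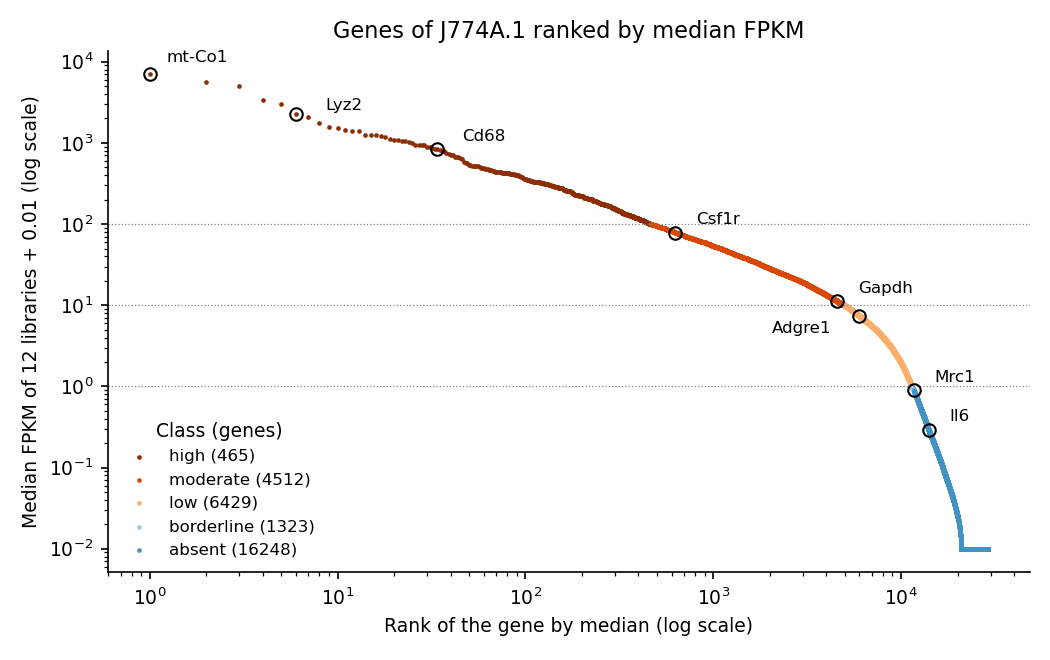
Median FPKM of the 12 libraries plus 0.01 for each of the 28977 genes (log scale) against the gene's rank (log scale), coloured by class; dotted lines mark 1, 10 and 100 FPKM. Lyz2 stands at rank 6 and Cd68 at rank 34, Csf1r at rank 629 and Adgre1 at rank 6007, while Il6 lies in the absent class.

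The class of most expressed genes held in each library taken alone: 375 of the 465 high genes were at 100 FPKM or more in all 12 libraries, 3297 of the 4512 moderate genes stayed between 10 and 100, and 4526 of the 6429 low genes between 1 and 10. The thresholds cut through a continuous range. Rrm2, a subunit of ribonucleotide reductase, was the last gene inside the high class with a median of 100.2 FPKM, and BC005537 the first outside it with 99.98. Lyst (10.003) and Ttc39b (9.9995) stood on either side of the moderate threshold, and Serpinb1c (1.0002) and Cadps (0.99998) on either side of the low one. Gm38345 was the absent gene with the highest single library, at 0.9999 FPKM, and Carmil1 reached 1.0008 in its highest library and was borderline.

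The top of the list named 4 functions: respiration, translation, iron storage and the machinery of the phagocyte. mt-Co1, a subunit of cytochrome c oxidase encoded in the mitochondrial genome, was highest with 6971 FPKM (5946 to 8674). It was followed by mt-Cytb of complex III with 5642 (3923 to 6591) and mt-Nd1 of complex I with 5037 (4331 to 5859). Eef1a1, the factor that brings transfer RNAs to the ribosome, was the highest nuclear gene with 3372 FPKM (3175 to 4760). Lyz2, the lysozyme of myeloid cells, came sixth of all genes with 2279 FPKM (2020 to 2892). The iron-storing ferritin chains Fth1 and Ftl1 had 2072 (1811 to 4202) and 1461 FPKM (1261 to 2997). Actb, cytoplasmic actin, had 1742 FPKM (1276 to 2058), and Tmsb4x, which holds actin monomers, had 1549 (1170 to 1912).

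Among the rest of the 25 highest named genes were several of the lysosome and of secretion. Spp1 (osteopontin, a secreted matrix protein and cytokine) had 1403 FPKM (818 to 1533), Ctsz and Ctsd, both lysosomal proteases, had 1188 (1108 to 1282) and 1032 (986 to 1418), and Gpnmb, a lysosomal membrane glycoprotein of phagocytes, had 1004 (932 to 1094). Ifitm3, an interferon-inducible barrier to virus entry, had 1223 (1123 to 2758), and Lgals1, galectin 1, had 1085 (912 to 2613). Hsp90ab1, a chaperone, had 1054 (889 to 1237), and mt-Nd2 and mt-Nd4 had 3043 (2638 to 3781) and 1073 (691 to 1283). Ptma had 1263 FPKM (1016 to 1373), and the ribosomal protein genes Rplp1 and Rps3a1 had 1418 (1274 to 5281) and 1060 (975 to 1183). The remaining members of the 25 were annotated pseudogenes, Gm15772, Gm13394, Rps2-ps10 and Gm6166, described with their coding genes further on. The highest values of Rplp1, Fth1, Ftl1, Ifitm3 and Lgals1 were all in cell media replicates 1 or 2. Over the 10 libraries their highest values were 1623, 2459, 1794, 1396 and 1281 FPKM.

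The 10 genes with the highest median held 10.3% ± 0.66 of a library's summed FPKM (SD, n = 12), the top 100 held 29.9% ± 2.19 and the top 1000 held 63.3% ± 2.82. The 34 mitochondrially encoded genes took a median of 7.69% (5.89% to 9.06%), and 89 cytosolic ribosomal protein genes took 8.03% (7.58% to 12.9%). A set of 15 cathepsins and their inhibitors alone took 1.63% (1.40% to 1.67%), and 37 genes of glycolysis took 1.29% (1.11% to 1.38%). Annotated pseudogenes were not counted in these sets, and the 4625 with a row took 9.22% (8.41% to 11.3%). Some are near-identical to Gapdh or to ribosomal protein genes, so the shares of glycolysis and ribosomal protein genes are uncertain. Of the 10 highest genes 6 were among the 10 highest in all 12 libraries, of the 25 highest 16, and of the 100 highest 70. Over the 10 libraries these counts were 7, 22 and 88.

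Of the 4 markers used to check the label, Lyz2 and Cd68 were high, Csf1r was moderate and Adgre1 was low. Lyz2 had 2168, 2265 and 2420 FPKM in cell media, 2151, 2294 and 2020 in HBSS, 2202, 2255 and 2293 at 20 µM, and 2515, 2740 and 2892 at 100 µM. The 3 libraries at 100 µM were the highest of the 12. Cd68, a glycoprotein of macrophage lysosomes, had 906, 887 and 771 FPKM in cell media, 826, 857 and 821 in HBSS, 791, 811 and 847 at 20 µM, and 817, 878 and 918 at 100 µM, and all groups overlapped.

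Csf1r, the receptor that macrophages need to survive, had 41.4, 54.3 and 66.3 FPKM in cell media, 66.4, 78.9 and 82.6 in HBSS, 71.6, 78.0 and 85.9 at 20 µM, and 83.6, 87.3 and 92.4 at 100 µM. The lowest libraries were cell media replicates 1 and 2. Adgre1, the gene of the surface antigen F4/80, had 3.71, 4.54 and 6.87 FPKM in cell media, 6.65, 8.20 and 9.14 in HBSS, 6.57, 7.52 and 8.12 at 20 µM, and 7.21, 7.63 and 7.79 at 100 µM. It was present in every library and lowest in the same cell media replicates. In every group Csf1r and Adgre1 rose from replicate 1 to 2 to 3. In limma's F-test of the 4 group means the adjusted p was 0.154 for Lyz2, 0.825 for Cd68, 0.107 for Csf1r and 0.131 for Adgre1. The test had no term for the replicate number and counted that rise as error. These p-values therefore do not show that the groups were alike.

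**Figure D2:**
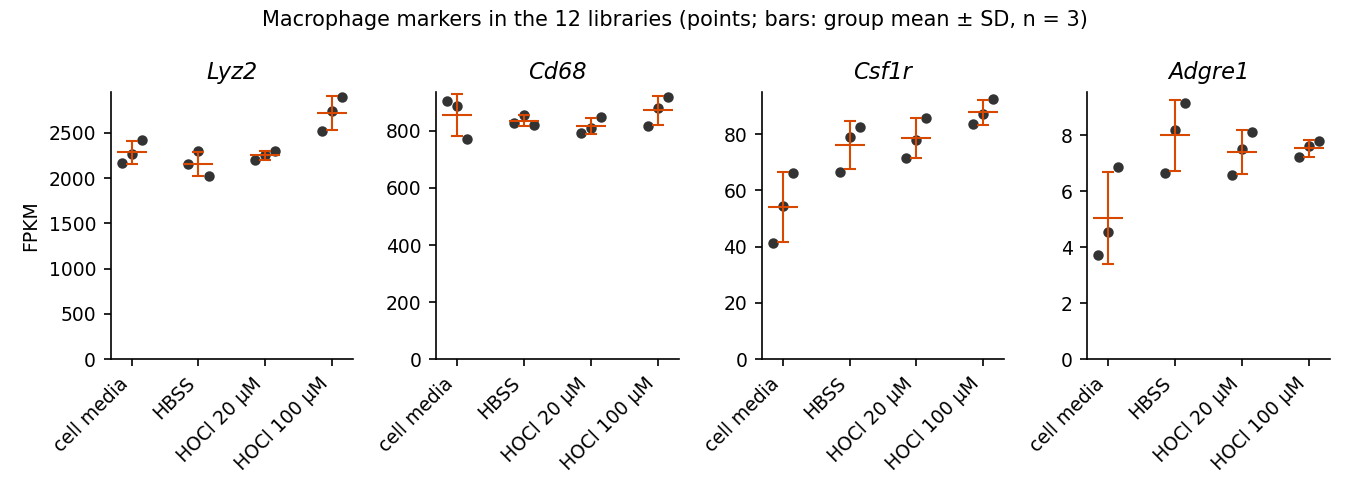
FPKM of Lyz2, Cd68, Csf1r and Adgre1 in each library (points) by group, with the group mean ± SD (n = 3); each axis starts at 0. The levels differ between the genes far more than between the libraries, from 2020 to 2892 FPKM for Lyz2 and from 3.71 to 9.14 for Adgre1, whose lowest points are cell media replicates 1 and 2.

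All 4 markers were above 1 FPKM in every library. Of the 20 core macrophage genes, 10 were high, 4 moderate, 3 low, 1 borderline and 2 absent. Tyrobp and Fcer1g, signalling adaptors of activating receptors, had 459 FPKM (403 to 1191) and 439 (408 to 793). Coro1a, an actin-binding protein of blood cells, had 354 (318 to 746), and Cd14, the co-receptor for lipopolysaccharide, had 317 (281 to 375). Mpeg1, a pore-forming protein of phagocytes, had 286 (161 to 304). The mannose receptor Mrc1 was borderline with 0.893 FPKM (0.311 to 1.13). The haemoglobin scavenger receptor Cd163 and Adgre4 were absent, with no library above 0.0172 and 0.0288 FPKM.

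Among 29 transcription factors of myeloid cells with a row, 1 was high, 11 moderate, 10 low and 7 absent. The stress-induced factor Atf3 led with 119 FPKM (101 to 165). PU.1 (Spi1) had 61.0 FPKM (55.7 to 91.0), and Irf5, a factor of inflammatory gene expression, had 43.0 (38.6 to 56.5). Nfe2l2, the master factor of the antioxidant response, had 56.5 (52.8 to 62.5), and Klf6 had 54.7 (26.8 to 77.7). Cebpa, which acts early in myeloid development, lay at the low threshold with 1.04 FPKM (0.763 to 1.78), and over the 10 libraries it was borderline. The absent ones included the tissue-specific factors Pparg of alveolar, Spic of red pulp and Gata6 of peritoneal macrophages, with no library above 0.104 FPKM. Sall1, the factor of microglia, had no row in the table analysed here.

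Most genes of lysosomal digestion were high or moderate. Of 15 cathepsins and inhibitors with a row, 10 were high, 1 moderate, 2 low and 2 absent, and their median of medians was 207 FPKM. After Ctsz and Ctsd came the cathepsins Ctss with 818 FPKM (666 to 877) and Ctsb with 634 (540 to 698), and the inhibitors Cst3 with 334 (294 to 641) and Cstb with 288 (262 to 515). Ctse and Ctsw, cathepsins of other blood cells and epithelia, were absent. Of 34 lysosomal enzymes and membrane proteins, 7 were high, 21 moderate, 4 low and 2 absent. Psap, the precursor of the sphingolipid activators, led with 841 (728 to 932), then Grn, progranulin, with 378 (356 to 457) and the membrane protein Lamp1 with 299 (280 to 317). The enzymes Hexa and Gusb had 242 (231 to 337) and 171 (161 to 177), and Npc2, which carries cholesterol out of the lysosome, had 125 (117 to 176).

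The absent members of the lysosomal list were Acp5, the acid phosphatase of osteoclasts, and Cd63, a tetraspanin of late endosomes that most cells express. Cd63 was listed at 0 FPKM in 8 libraries and at no more than 0.0278 in the others, and whether these values reflect its RNA was not tested. Its annotated near-identical copy Cd63-ps also had no library above 0.0562 FPKM. Of the 25 subunits of the proton pump that acidifies lysosomes (V-ATPase), 3 were high, 14 moderate, 2 low and 6 absent. Where the pump has alternative subunits, 1 form led. Tcirg1, the a3 subunit, had 71.3 FPKM (58.7 to 80.4), Atp6v0a1 24.3 (21.1 to 27.4) and Atp6v0a2 6.89 (4.38 to 7.61), with no overlap between neighbours in that order, and Atp6v0a4, the form of kidney, was absent. Atp6v1b2 and Atp6v0d1 had 88.9 (77.6 to 93.2) and 93.4 (87.7 to 138), while their alternatives Atp6v1b1 and Atp6v0d2 were absent.

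Most receptors by which phagocytes bind coated particles were high or moderate. Of 14 receptors for antibody and complement with a row, 3 were high, 6 moderate, 2 low, 1 borderline and 2 absent. All 4 Fc gamma receptors were moderate: the inhibitory Fcgr2b had 81.3 FPKM (48.6 to 96.9), Fcgr4 46.5 (29.7 to 58.1), Fcgr3 30.7 (23.5 to 37.6) and Fcgr1 26.9 (18.6 to 30.2). Neighbours in that order overlapped in range, although Fcgr2b was above Fcgr4 in 12 of 12 libraries. C3ar1 and C5ar1, receptors of the complement peptides, had 145 (85.6 to 151) and 79.99 (41.4 to 94.2), and the integrin chains Itgb2 and Itgam of complement receptor 3 had 119 (101 to 134) and 43.0 (24.5 to 46.7).

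Scavenger and lectin receptors were spread over all classes: of 24 with a row, 3 were high, 7 moderate, 4 low, 2 borderline and 8 absent. The absent ones made up 33.3%, against 56.1% of all genes listed, coding or not. After Gpnmb came the lectin Clec4d with 200 FPKM (174 to 245), the scavenger receptor Msr1 with 120 (51.5 to 129), the lectin Clec4e with 79.0 (50.9 to 87.7), Lrp1 with 70.7 (45.8 to 79.1) and Marco with 66.4 (44.8 to 87.8). Of the receptors for dying cells, Mertk was low with 6.47 (2.40 to 7.44), and Axl, Tyro3 and Timd4 were absent. The fatty acid receptor Cd36 was absent too, with no library above 0.208 FPKM.

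Subunits of the oxidase that makes superoxide were expressed, and myeloperoxidase, which turns hydrogen peroxide into HOCl in neutrophils, was absent. Cyba and Cybb, the membrane subunits, had 274 FPKM (255 to 598) and 78.9 (48.1 to 87.5). The cytosolic subunits Ncf4 and Ncf1 had 177 (163 to 266) and 45.5 (43.6 to 51.5), and the regulatory GTPase Rac2 had 231 (219 to 319). Mpo, Elane and Prtn3, enzymes of neutrophil granules, were absent, with Mpo at no more than 0.0293 FPKM in any library. Nos2, the inducible nitric oxide synthase, was moderate with 17.5 FPKM (11.3 to 26.3), and Nos1 and Nos3 were absent.

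**Figure D3:**
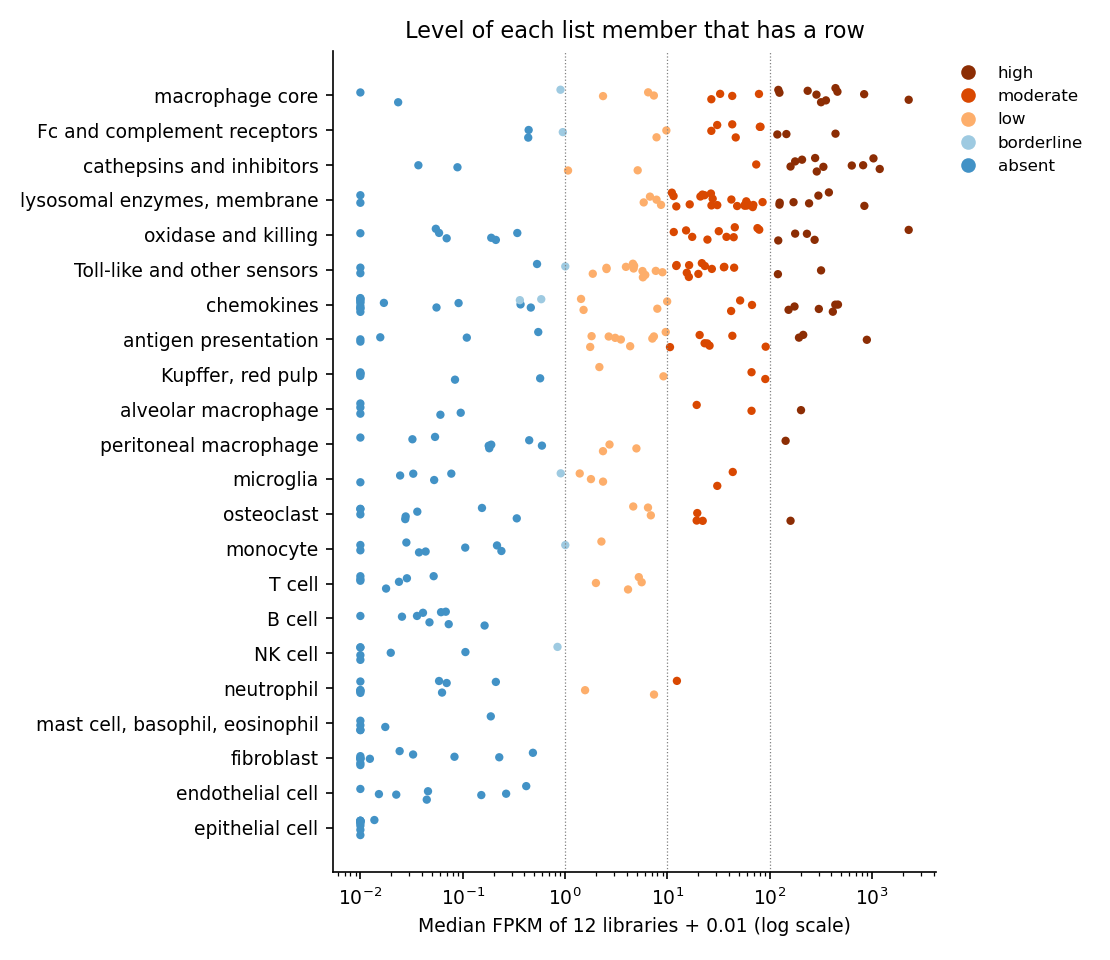
Median FPKM of the 12 libraries plus 0.01 (log scale) for each member of 22 gene lists that has a row in the table, coloured by class; dotted lines mark 1, 10 and 100 FPKM and points at the left edge have a median of 0. The upper lists, those of macrophage functions, reach into the high class, while B cell, mast cell, fibroblast, endothelial and epithelial markers all lie in the absent class.

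Toll-like receptors and cytosolic sensors were mostly moderate or low: of 30 members, 2 were high, 12 moderate, 12 low, 1 borderline and 3 absent. Tlr2, which senses bacterial lipoproteins, led the receptors with 44.9 FPKM (24.4 to 48.9), followed by the sensors of RNA Tlr7 with 36.0 (12.6 to 38.2) and Tlr13 with 27.2 (9.13 to 29.7). Tlr4, which senses lipopolysaccharide, had 16.3 (11.1 to 18.97) and Tlr9, which senses DNA, had 16.2 (12.6 to 19.1). These overlapped, with Tlr4 above Tlr9 in 7 of 12 libraries. Tlr5, the flagellin receptor, was borderline with 0.995 FPKM (0.520 to 1.10), and over the 10 libraries the list held no borderline gene and 13 low ones. Tlr11 and Tlr12 were absent. Unc93b1, the chaperone of the endosomal receptors, was high with 120 (116 to 135).

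The chemokines ranged over all classes: of 29 with a row, 6 were high, 3 moderate, 4 low, 2 borderline and 14 absent. Ccl2, which draws monocytes, had 464 FPKM (319 to 622). Ccl3 and Ccl4, a pair of related inflammatory chemokines, had 437 (384 to 710) and 302 (269 to 494), Ccl9 had 414 (278 to 526), Pf4 175 (153 to 356) and the neutrophil attractant Cxcl2 153 (121 to 281). Cxcl1 and Cxcl3, relatives of Cxcl2 that also draw neutrophils, were absent, as were the lymphocyte attractants Cxcl9, Cxcl12 and Cxcl13. Of 37 cytokines and growth factors, 4 were high, 5 moderate, 9 low, 1 borderline and 18 absent. The high ones were Spp1, Grn, Mif with 292 (269 to 530) and Tnf with 133 (90.7 to 156), while Il1a, Il1b, Il6, Il10 and Il12b were absent, none of them above 0.931 FPKM in any library. Tgfb1 and Tnfsf9 followed with 39.4 (34.8 to 45.6) and 37.5 (34.4 to 52.6).

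Neither of the usual activation programmes was expressed as a whole. Of 15 genes of classical activation, 2 were high, 3 moderate, 5 low and 5 absent: Tnf and Marcksl1 (111 FPKM, 81.9 to 152) were high and Cd86, Nos2 and Acod1 were moderate, but Il6, Il1b, Il12b, Ido1 and Cxcl9 were absent. Of 14 genes of alternative activation with a row, 2 were moderate, 1 low, 2 borderline and 9 absent. Mgl2 and Clec10a, a pair of related lectins, had 19.01 (14.4 to 23.1) and 18.3 (15.4 to 21.2), while Arg1 and Retnla were absent.

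Antigen presentation was split by class. For class I, B2m had 889 FPKM (814 to 1425), H2-D1 193 (179 to 268) and H2-K1 91.3 (77.7 to 125); H2-D1 and H2-K1 belong to a family of near-identical genes and are uncertain one by one. For class II, the chains H2-Aa, H2-Ab1 and H2-Eb1 and their master activator Ciita were absent, with no library above 0.242 FPKM. Cd74, the chain that guides class II molecules to the endosome, was high all the same with 212 (192 to 300). The peptide editors H2-DMa and H2-DMb1 had 3.50 (2.86 to 4.55) and 0.537 (0.254 to 0.671).

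In the lists of tissue macrophage and osteoclast programmes, 45.5% to 66.7% of members with a row were absent, on both sides of the share of all genes. For comparison, 56.1% of all genes listed were absent, coding or not. Among coding genes alone the absent share was smaller, with 6503 absent, 355 borderline, 5089 low, 4186 moderate and 403 high. Of 10 Kupffer cell and red pulp genes with a row 6 were absent, of 8 alveolar genes 5 and of 12 peritoneal genes 8. Of 11 microglial genes 5 were absent, and of 15 osteoclast genes 8. Members with a median above 1 FPKM included genes that several kinds of macrophage use, such as Hmox1 with 90.5 FPKM (61.4 to 129), Marco, Trem2 with 43.5 (40.2 to 71.3), Cd9 with 143 (131 to 168) and Ctsk with 160 (109 to 177). They also included the microglial receptors P2ry12 with 1.78 (0.758 to 2.36) and P2ry13 with 1.38 (0.850 to 1.92), and the osteoclast genes Clcn7 with 22.1 (17.2 to 28.4) and Car2 with 19.6 (17.4 to 24.5). Fabp5 was high with 202 (182 to 370) but has near-identical copies. Most monocyte genes were absent: of 10 with a row, S100a4 was low with 2.26 (0.842 to 5.52), Ccr2 was borderline with 0.995 (0.457 to 1.26; over the 10 libraries it was low with a median of 1.01) and the other 8, Ly6c2 among them, were absent.

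Most markers of other lineages were absent. Of 110 such markers with a row, from 11 lists, 96 were absent, 1 borderline, 9 low, 1 moderate and 3 high, and 30 more had no row. All 12 fibroblast, 10 epithelial, 9 B cell, 8 endothelial and 6 mast cell, basophil or eosinophil markers with a row were absent, and Col1a1, Epcam, Pax5 and Cdh5 had no library above 0.435 FPKM. The high ones were Bst2 with 171 FPKM (145 to 244), which interferon induces in many cells, the iron importer Tfrc with 169 (53.7 to 197), which dividing cells use, and the chemokine Pf4. The T cell markers were divided. Il7r, Cd5, Lck and Lat were low, with 5.6 (3.82 to 8.23), 5.25 (4.14 to 6.07), 4.12 (3.31 to 6.18) and 1.99 FPKM (1.34 to 2.96), and above 1 in all 12 libraries. Cd3d, Cd4, Cd8a, Cd247 and Zap70 were absent, with no library above 0.0697. Of the neutrophil markers S100a8 was moderate with 12.4 (9.71 to 19.1), while S100a9, which encodes its usual partner chain, was absent with no library above 0.0962. Such levels are averages over a culture, and a few cells with much RNA cannot be told apart from many cells with little.

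Of the 37 glycolysis genes with a row, 8 were high, 15 moderate, 3 low and 11 absent. Pkm, the pyruvate kinase of most dividing cells, had 722 FPKM (635 to 946), and Pklr, the form of liver and red cells, was absent. Ldha had 408 (331 to 591), against 2.42 (1.79 to 3.67) for Ldhb, and Ldhc of testis was absent; Ldha took 99.4% of the summed FPKM of the 3. Aldoa had 675 (618 to 1025) and Aldoc 42.8 (38.0 to 57.4). Among hexokinases the order was Hk3 with 54.7 (43.8 to 77.8), Hk2 with 36.3 (24.8 to 39.0) and Hk1 with 22.1 (20.0 to 24.6), with no overlap between neighbours. The glucose transporters followed the order Slc2a1 with 63.8 (48.7 to 70.7), Slc2a6 with 33.5 (28.8 to 37.1) and Slc2a3 with 14.98 (12.4 to 15.9), again without overlap, and the forms of liver (Slc2a2) and of muscle and fat (Slc2a4) were absent.

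In several other families 1 or 2 members took most of the FPKM, whereas phosphofructokinase was shared by Pfkp, Pfkl and Pfkm with 53.2%, 28.6% and 17.9%, and Fcgr2b took 43.3% among the Fc gamma receptors. Actb and Actg1, the cytoplasmic actins, took 74.6% and 25.4% of the actin FPKM, and the 4 muscle actins were absent. Tubb5 and Tubb4b took 69.2% and 18.9% of beta tubulin, Tuba1b and Tuba1c 60.9% and 28.2% of alpha tubulin, and Tubb1, Tubb3 and Tuba8 were absent. Myh9, a non-muscle myosin, had 97.1 FPKM (62.2 to 101), against 7.37 (4.99 to 10.2) for Myh10 and 2.39 (1.70 to 2.88) for Myh14. Eef1a2, the muscle and neuron form of Eef1a1, was absent, and so was Lyz1, the intestinal neighbour of Lyz2. Among stearoyl-CoA desaturases Scd2 had 494 (428 to 551), against 4.58 (3.58 to 5.62) for Scd1. Ccnd1 led the D cyclins with 64.0 (43.2 to 75.2), Ccnd3 had 11.5 (8.47 to 17.9), and Ccnd2 was absent. In the 20 families compared, the range of the leading member over the 12 libraries lay above that of the next member, except among Fc gamma and Toll-like receptors. Some members have near-identical pseudogenes: Actg1 has 6, Tuba1b 5, Tubb4b 2 and Ldha 2, against 0 for Actb and Tubb5. Reads of such members may have been placed on the copies or left out, so the shares and orders of their families are uncertain.

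Iron and redox genes were well represented: of 27 with a row, 11 were high, 12 moderate, 2 low and 2 absent. Over the 10 libraries 10 were high and 13 moderate, since Gpx4 had a median of 103 FPKM over the 12 and 99.8 over the 10. After the ferritins came the peroxide scavengers Prdx1 with 516 FPKM (466 to 674) and Gpx1 with 511 (406 to 1109.9), then Txn1, thioredoxin, with 404 (333 to 579) and the autophagy receptor Sqstm1 with 183 (154 to 290). Nqo1, a quinone reductase that Nfe2l2 can induce in many cells, was absent, at 0.473 (0.106 to 0.996) and thus close to the threshold. Of 28 lipid genes with a row, 2 were high, 14 moderate, 7 low and 5 absent. Lpl, lipoprotein lipase, had 89.5 (44.9 to 103), Plin2, which coats lipid droplets, 76.4 (67.6 to 89.7), Soat1, which esterifies cholesterol, 68.1 (63.1 to 76.9) and Fasn, fatty acid synthase, 64.7 (49.3 to 69.1). Apoe, the apolipoprotein that many macrophages secrete, was low with 2.25 FPKM (0.876 to 2.69), a gene chosen after its values were seen.

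Genes of the cell cycle were expressed throughout. Of 33 genes of proliferation and growth control with a row, 2 were high, 24 moderate, 4 low and 3 absent. Pcna, the sliding clamp of replication, had 228 FPKM (178 to 279), Rrm2 100.2 (69.5 to 116), the replication helicase subunit Mcm5 92.5 (68.9 to 107) and Stmn1, a tubulin-binding protein, 87.2 (72.9 to 109). Mki67, the proliferation marker, had 85.3 (35.6 to 102) and Top2a, topoisomerase II alpha, 82.6 (40.8 to 89.9), and cell media replicates 1 and 2 were the lowest libraries for Mki67 with 37.6 and 35.6. The telomerase gene Tert was absent at 0.266 (0.144 to 0.368). The tumour suppressors Cdkn2a and Cdkn2b had no row in the table analysed here.

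The counting placed many reads on annotated pseudogenes. Of the 465 high genes 53 were pseudogenes, and each of the 53 matched a coding transcript over at least 80% of its length at 95% identity or more, 50 of them at 98% or more. A ribosomal protein gene was the match in 31 cases. The pseudogene was above its coding gene in 27 cases, and in 18 its lowest library was above the coding gene's highest. Reads that fit both copies cannot be assigned with certainty, so the level of each such gene, copy and coding gene alike, is uncertain. Among coding genes of the high class 36.5% had at least 1 such copy, against 6.83% of all coding genes in the table.

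A wide gap was that of Gapdh, the glycolytic enzyme often used as a reference gene. Gm13394, a processed pseudogene, had 1262 FPKM (1177 to 2061), against 11.2 (6.38 to 29.0) for Gapdh. Over 1000 aligned bases Gm13394 differed from the Gapdh transcript at 1 base, and 57 annotated pseudogenes were near-identical to Gapdh, of which 55 had a row. Gapdh and those rows summed to 1607 FPKM (1462 to 2650). Likewise Atp6v0c-ps2 had 755 (688 to 1309), against 55.7 (52.4 to 91.3) for Atp6v0c, the ring subunit of the proton pump, and differed from it at 1 of 465 bases. The windows of 61 bases around these positions, from the coding sequences and the pseudogenes in GENCODE M21, show how little separates the copies, with the differing base in capitals.
Gm13394 (chromosome 2): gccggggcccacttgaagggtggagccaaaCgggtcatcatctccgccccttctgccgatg
Gapdh (chromosome 6): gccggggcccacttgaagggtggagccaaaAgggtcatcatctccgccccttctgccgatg
Atp6v0c-ps2 (chromosome 6): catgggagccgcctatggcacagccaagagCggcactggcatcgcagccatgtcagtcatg
Atp6v0c (chromosome 17): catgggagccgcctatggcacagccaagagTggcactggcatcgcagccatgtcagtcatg

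Further pairs in which the pseudogene stood far above were Gm15772 with 1516 FPKM (1426 to 2134), against 42.8 (34.5 to 78.5) for Rpl26, and Rps2-ps10 with 1234 (1157 to 2577), against 60.2 (49.8 to 118) for Rps2. Gm12191 had 938 (874 to 1439), against 16.5 (12 to 27.0) for Rpl30, and Rps10-ps2 had 521 (463 to 1223), against 2.89 (1.66 to 4.67) for Rps10. Gm6166 had 1130.4 (1013 to 2127), against 202 (182 to 370) for Fabp5. Copies of mitochondrial genes stood above or below their genes. Gm28438 had 154 (114 to 280), against 45.4 (33.0 to 82.5) for mt-Nd3, and Gm10925 had 415 (329 to 505), against 271 (221 to 595) for mt-Atp6, with overlap. Gm28661 had a median of 173, against 327 for mt-Co2, and Gm29216 one of 92.2, against 6971 for mt-Co1. The macrophage markers Lyz2, Cd68, Csf1r and Adgre1 had no such copy.

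**Figure D4:**
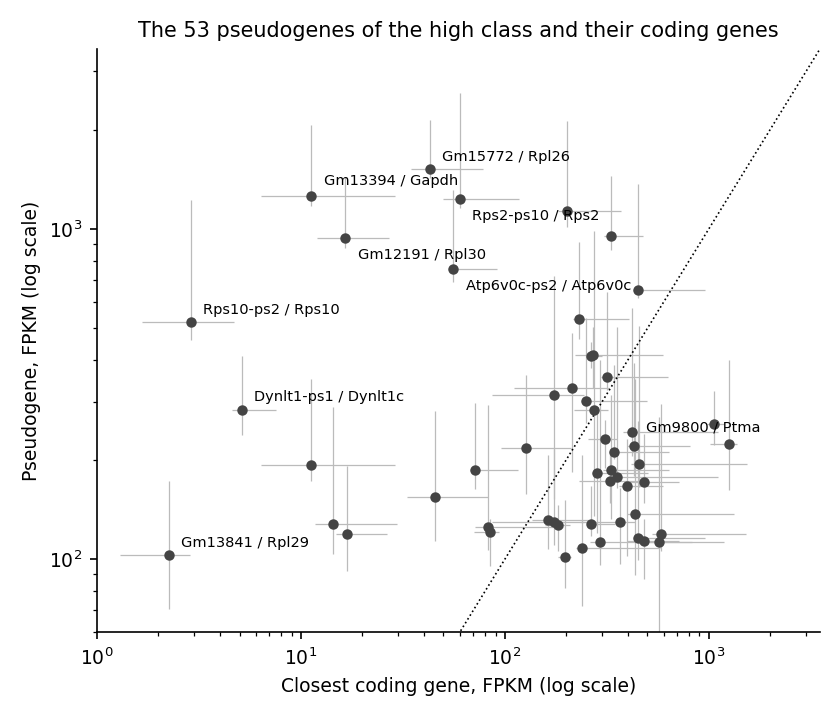
FPKM of each of the 53 pseudogenes of the high class against that of its closest coding gene (both log scales; points: medians of 12 libraries, lines: lowest to highest library; dotted line: equal values). In 27 pairs the pseudogene has the higher median, with Gm13394 at 1262 FPKM, against 11.2 for Gapdh, among the farthest from the line.

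Levels were steady over the 12 libraries for most expressed genes. Among the 4977 genes with a median of at least 10 FPKM the highest library was a median of 1.61 times the lowest, and 1.25 times over the 10 libraries. The ratio was under 2 for 78.0% of them, and for 96.0% over the 10. Cell media replicates 1 or 2 were the highest library for 38.9% of these genes and the lowest for 50.3%. The 8 steadiest genes were Khsrp, Afg3l1, Csnk1d, Flii, Ctsa, Rabl6, Golt1b and Rtn3, with ratios of 1.07 to 1.08. Ctsa, the lysosomal protective protein, was the only one of them in the high class, with 278 FPKM (269 to 290). Of the 8 genes with the largest ratios, ENSMUSG00000119584, which carries no symbol in the annotation used, ranged from 321 to 16232 FPKM, and Lars2, a mitochondrial leucyl-tRNA synthetase, from 14.8 to 295. Both maxima were in cell media replicate 1, and over the 10 libraries the ranges were 321 to 705 and 14.8 to 20.9. Whether the Lars2 value in that replicate reflects its own messenger RNA was not tested. The others of the 8 were 3 more IDs without a symbol, the small RNA genes Mir5125 and mt-Tl1 and the predicted gene Gm26109, with ratios of 9.52 to 24.2.

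The levels of 12026 genes were compared among the 4 groups on the scale of log2(FPKM + 1). The moderated F-test of limma called 22 genes at an adjusted p under 0.05 (0.183% of those tested), of which 15 were low, 6 moderate and 1 borderline, and 3476 were at an unadjusted p under 0.05. The count rested on single libraries: it was 7561 without cell media replicate 3, and between 1 and 15 without any other library. Over the 10 libraries limma called 0, with 0.0678 as its smallest adjusted p and 3352 genes at an unadjusted p under 0.05. Cell media then held 1 library, which was assumed to vary like the other groups. These fits left out the replicate number. With that number as a further term of the model (a block), limma called 226 genes over the 12 libraries. The count over the 10 rose with the block too. The few calls without it therefore do not show that the groups were alike.

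Promoters of the coding genes differed between the level classes in their content of CpG, the base pair step that DNA methylation acts on. In the RefSeq windows of 300 bases (GRCm38.p6, 250 before the start and 50 after it) the observed CpG count over that expected from base composition had a median of 0.77 in the high class, 0.80 in the moderate, 0.76 in the low, 0.57 in the borderline and 0.39 in the absent class. The windows numbered 385, 4246, 5261, 327 and 5754. Within the expressed genes the lists differed from each other. Translation genes of the high and moderate classes had a median of 0.95 (16 windows) and proton pump genes 0.77 (17), lysosomal genes 0.624 (24) and cathepsins 0.514 (11), against 0.275 for the macrophage core (12), 0.263 for Fc and complement receptors (9), 0.239 for oxidase and killing genes (10) and 0.175 for chemokines (5). The medians of macrophage core, receptor, oxidase and chemokine genes lay below that of the absent class, although every gene counted was high or moderate. The differences were not tested. Not every gene had a window: in the high class 312 of the 403 coding genes did. So did 10 of the 14 high or moderate macrophage core genes and 8 of the 9 Fc and complement receptors. Among oxidase and killing genes 10 of 15 had a window, and among chemokines 5 of 9.

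The 250 bases before the start of 5 genes of the high class, chosen as examples of few and of many CpG, are shown with each CpG in capitals. They are Lyz2 (chr10:117282273-117282522), Cd68 (chr11:69666171-69666420) and Ccl3 (chr11:83649379-83649628), with 1, 4 and 2 CpG, and Ctsd (chr7:142387828-142388077) and Eef1a1 (chr9:78481725-78481974), with 27 and 18, all on the minus strand of GRCm38.p6. By the same count Ctsz and Gpnmb had 7 each, and Psap had 16 and 1 in its 2 windows.
Lyz2: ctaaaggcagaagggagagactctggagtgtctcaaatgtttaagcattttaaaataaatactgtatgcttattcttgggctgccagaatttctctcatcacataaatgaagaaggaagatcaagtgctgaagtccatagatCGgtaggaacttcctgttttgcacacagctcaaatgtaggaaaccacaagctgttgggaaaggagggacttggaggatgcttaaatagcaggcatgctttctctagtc
Cd68: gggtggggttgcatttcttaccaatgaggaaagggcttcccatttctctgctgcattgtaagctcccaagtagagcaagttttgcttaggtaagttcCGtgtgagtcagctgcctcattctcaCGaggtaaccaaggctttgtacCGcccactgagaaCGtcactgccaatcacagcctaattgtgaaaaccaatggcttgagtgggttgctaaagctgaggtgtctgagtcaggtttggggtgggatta
Ccl3: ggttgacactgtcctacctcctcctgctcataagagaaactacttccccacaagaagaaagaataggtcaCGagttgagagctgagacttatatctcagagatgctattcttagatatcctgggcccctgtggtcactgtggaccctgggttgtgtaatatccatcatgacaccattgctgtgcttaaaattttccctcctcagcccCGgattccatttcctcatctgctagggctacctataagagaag
Ctsd: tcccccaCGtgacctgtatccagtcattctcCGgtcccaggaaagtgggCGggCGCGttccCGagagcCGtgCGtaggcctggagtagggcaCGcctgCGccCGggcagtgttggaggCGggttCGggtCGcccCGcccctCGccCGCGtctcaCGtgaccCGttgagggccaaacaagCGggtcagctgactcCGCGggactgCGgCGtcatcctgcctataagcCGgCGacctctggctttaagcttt
Eef1a1: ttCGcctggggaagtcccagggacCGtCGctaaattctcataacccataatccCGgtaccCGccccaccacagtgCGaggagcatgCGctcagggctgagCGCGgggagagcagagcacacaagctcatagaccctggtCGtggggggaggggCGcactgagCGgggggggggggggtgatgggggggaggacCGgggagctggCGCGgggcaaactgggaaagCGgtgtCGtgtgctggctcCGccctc

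The letters GGAAGT, a form of the core that PU.1 and other ETS factors bind, were searched on both strands of the 300-base windows. They stood in 80% of the 5 chemokine windows, 50% of the 12 macrophage core windows, 44.4% of the 9 of Fc and complement receptors and 20% of the 10 of oxidase and killing genes. Lists of general functions had 41.9% (cytoskeleton), 41.2% (proton pump), 37.5% (translation), 36.4% (cathepsins), 25% (lysosomal) and 15.2% (glycolysis). The letters stood in 35.1% of all high-class windows, against 26.6% of all 15973 coding windows and 20.2% of absent ones. Lyz2, Ccl3 and Eef1a1 held a match within the 250 bases shown. Cd68 held one in its 300-base window but not within the bases shown, and Ctsd held none. TATAAA, searched on both strands, stood in 12.5% of high-class windows, 5.86% of moderate ones and 13.2% of absent ones. GGGCGG, the letters of a GC box, stood in 64.2% of high-class and 39.7% of absent windows.

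**Figure D5:**
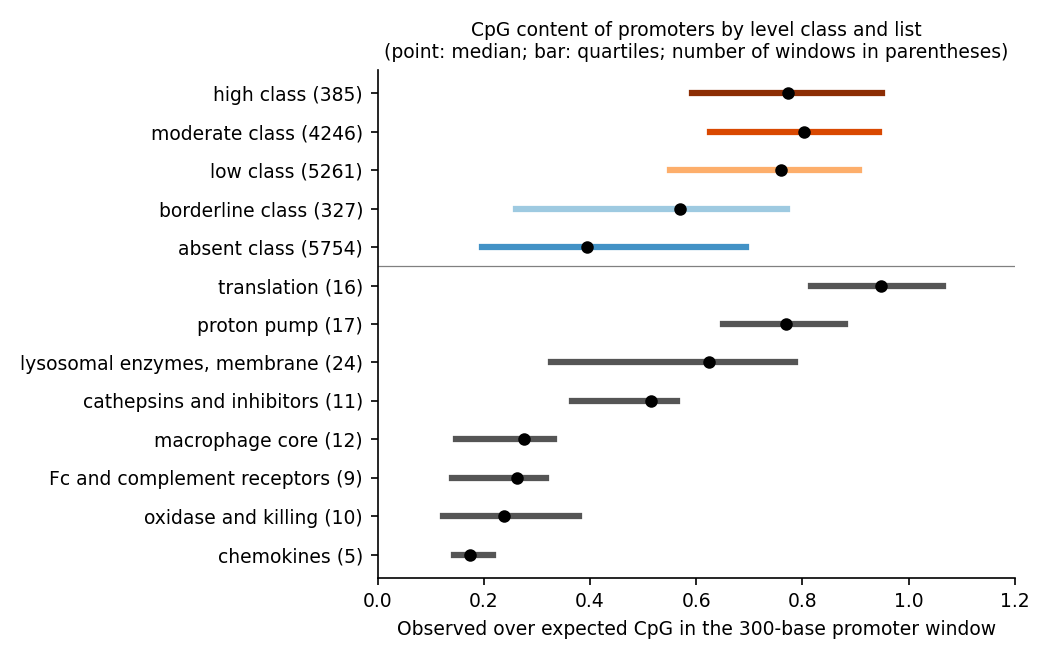
Observed over expected CpG count in the 300-base promoter windows (point: median, bar: quartiles) for coding genes of each level class and for the high and moderate genes of 8 lists, with the number of windows in parentheses. The classes from high to low lie at 0.76 to 0.80 and the absent class at 0.39, while macrophage core, receptor, oxidase and chemokine genes lie at 0.28 or less.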

How the data were processed

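Per the labels, 12 libraries of J774A.1 RNA were made with an mRNA-seq kit and run on instruments of 2 kinds, without saying which library ran on which. The authors deposited FPKM values. HISAT2, featureCounts and GRCm39 are named in the submitters' processing notes, and versions, strand setting and treatment of reads with several matches are unknown here (not given in the sources used here). Each library had a column in the table and none was left unmapped. Reads per library were recovered from the step between low values (98.26% of values below 1 FPKM whole within 0.01 read). Symbols, exon lengths and gene types came from GENCODE M21, of another build, and 28302 of 28977 IDs matched. Pseudogene transcripts were matched to coding ones with BLAST 2.17.0 (megablast, E under 1e-20). Genes with at least 1 FPKM in at least 3 libraries were tested on log2(FPKM + 1) with limma 3.58.1 in R 4.3.3, with a trend and Benjamini-Hochberg adjustment, after a check on simulated data. As replicates are not said to be separate cultures, p-values reflect only the spread between libraries, which may be technical. Tables and plots used Python 3.11.15. The 45 lists (943 entries, of which 938 matched), their members and the classes were chosen with earlier results of these data known. Named genes were the 25 highest with a symbol, up to 6 leading members of each list, the absent members that define a list, the leading and absent paralogs, those nearest a threshold and the 8 most and least steady. Other genes named were picked with their values in view. Alternatives were other scalings, thresholds, filters and pseudocounts, and leaving libraries out. Each class and share describes these samples and was not tested. A few members of the lists are not reported here.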

Additional observations from a re-analysis of the deposited data

How the results depend on the processing

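The counts of high, moderate, low and absent genes moved by less than 1.5 times when any library was left out (high 458 to 470, moderate 4502 to 4520, low 6410 to 6460, borderline 1218 to 1311, absent 16272 to 16318). Rescaling each library to the same sum (TPM) raised the high class to 1777, the moderate class to 6941 and the borderline class to 2830, since FPKM sums lay between 307153 and 389124. It lowered the low class from 6429 to 5038 and the absent class from 16248 to 12391. Calling genes absent under 0.5 FPKM gave 3504 borderline genes, and under 2 FPKM 171. The share of the top 10 genes was 6.34% without mitochondrially encoded genes and 11.3% without ribosomal protein genes, and that of the top 100 was 25.5% without mitochondrial genes; leaving out a library gave 10.2% to 10.5%, 29.4% to 30.1% and 62.7% to 63.5% for the top 10, 100 and 1000. The 14 high or moderate macrophage core genes and the 96 absent markers of other lineages held when any library was left out, and were 16 and 87 on the TPM scale.

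The F-test rested on few libraries. It called 14 when restricted to mean levels of 5 FPKM or more, 35 after quantile normalization and 12 after median-of-ratios scaling, and 1 to 7561 when a library was left out: 7561 without cell media replicate 3, 15 without HBSS replicate 1 and 1 or 2 otherwise. Without cell media replicates 1 and 2 limma called 0, with 3352 genes at an unadjusted p under 0.05 and the lone cell media library assumed to vary like the other groups. With the replicate block it called 226, and 3218 with the block over the 10 libraries, an alternative chosen after seeing the data, as was limma-voom on the recovered reads, which called 22. Same-numbered libraries correlated in their deviations at -0.417 to 0.414 (-0.062 to 0.414 outside cell media), and differently numbered ones at -0.495 to 0.501. Outside cell media the range was 0.264 to 0.377 for replicates 1, -0.062 to 0.075 for replicates 2 and -0.025 to 0.414 for replicates 3. Not every library correlated best with its own number, and the main fit did not pair libraries by number. Whether the numbers mark a batch was not tested, nor was the cause. Depth limits values near 1 FPKM, and copies of a gene limit the values of its family.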

Other observations

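Genes of cell death were present for several routes. Of 27 with a row, 13 were moderate, 10 low and 4 absent, and over the 10 libraries without cell media replicates 1 and 2 Bcl2a1d was borderline, which left 9 low. The survival genes Mcl1 and Bcl2l1 had 70.0 FPKM (65.0 to 74.5) and 60.2 (55.8 to 84.8), and the pore-forming Bax and Bak1 had 53.2 (48.8 to 121) and 51.7 (43.9 to 66.0). Casp8, which starts death-receptor apoptosis, had 35.5 (18.4 to 43.3), and Casp1, the protease of inflammasomes, had 30.8 (20.6 to 34.5). Gsdmd, the pore of pyroptosis, had 27.5 (23.7 to 34.0), and Il1b, the cytokine that Casp1 cleaves, was absent. Gsdmd and Il1b were chosen after their values were seen.

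Xist, the RNA that coats the inactive X chromosome, had 30.97, 33.9 and 132 FPKM in cell media, 124, 99.5 and 106 in HBSS, 123, 106 and 86.5 at 20 µM, and 96.5, 68.3 and 44.0 at 100 µM. The lowest libraries were cell media replicates 1 and 2 and replicate 3 at 100 µM. The Y-linked genes Ddx3y, Eif2s3y, Kdm5d, Uty, Zfy1 and Sry had no row in the table analysed here. Of 14 long noncoding RNAs with a row, Malat1 was high with 168 (81.4 to 258), 4 were moderate, 5 low and 4 absent, and over the 10 libraries Xist was high too.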
